A study of Mus musculus with 6 samples.

Results

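C-type lectins of the Dectin and Mincle family in peritoneal macrophages (PMs) were compared between diseased-BWF1 and control mice. The kinase and adaptor through which Dectin-1, Dectin-2, MCL and Mincle signal were included. The 8 genes were taken by receptor family and pathway, with earlier results of these data known: Clec7a (Dectin-1), Clec4n (Dectin-2), Clec4d (MCL), Clec4e (Mincle), Clec4a1 and Clec4a3 (DCIR4 and DCIR3), Syk and Card9. All 8 had records in the files, among 32879 genes, and all 8 passed the filter on low counts, among 10505 genes. RNA-seq covered PMs from 3 mice of the control group and 3 of the diseased-BWF1 group, each mouse giving 1 library. Controls were non-lupus-susceptible [NZW × BALB/c]F1 females aged 33, 33 and 30 weeks. The diseased-BWF1 mice were [NZB × NZW]F1 females aged 31, 31 and 34 weeks, chosen by the study's methods for anti-dsDNA antibodies and severe proteinuria. Both groups share an NZW parent and the H2 haplotype, and they differ in the other parental strain as well as in disease, so that strain and disease cannot be told apart. Cells were sorted as CD11b+ F4/80+.

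C-type lectin receptors bind carbohydrates and lipids of fungi and mycobacteria and some products of dying cells. Dectin-1 carries its own signalling motif for the kinase SYK. Dectin-2, MCL and Mincle lack such a motif and pair with the Fc receptor gamma chain (Fcer1g), which recruits SYK. SYK then acts through the adaptor CARD9 with BCL10 and MALT1 to switch on NF-κB and cytokine genes. Mincle is known as a receptor that is low in resting macrophages and induced on activation, while MCL is expressed constitutively in myeloid cells and forms a complex with Mincle.

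Total counts were 3629901 to 5003360 per mouse, and 3 counts correspond to 0.652 to 0.888 CPM (counts scaled to library size), a floor that covers counting error only. The defining markers of PMs were present in every library: Adgre1, the gene for F4/80, had 7060 to 8562 normalized counts and Gata6, a transcription factor of resident PMs, had 262.2 to 454 normalized counts. Of 10 resident PM markers all 10 were tested and 0 were called, with 3 at an unadjusted p under 0.05 and 5 with groups that did not overlap. Over all genes tested, 1.22% were called, 13.2% had such a p and 20.8% had such groups. Adgre1, Icam2 and Timd4 were lower in every diseased-BWF1 mouse (log2 fold changes -0.17, -0.55 and -0.53, edgeR adjusted p = 0.630, 0.198 and 0.334), and Cd9 and Prg4 were higher (1.41 and 0.29, edgeR adjusted p = 0.0587 and 0.566). The summed markers were 126098 to 135786 normalized counts in controls against 133150 to 160993 in diseased-BWF1 mice. Most of each sum came from Prg4, Itgam and Alox15. Prg4 alone had 59043 to 66048 in controls against 66430 to 93059 in diseased-BWF1 mice. The part of these differences in the values below was not tested. Markers of B cells summed to 6.05 to 26.5 normalized counts per mouse over 7 genes, those of T and NK cells to 1.15 to 12.3 over 7 genes, and those of mast cells and eosinophils to 1.01 to 7.55 over 8 genes. Dendritic cell markers summed to 42.2 to 45.3 in control mice against 33.3 to 68.9 in diseased-BWF1 mice over 8 genes, and Ccr7 was at 0 in every library. Neutrophil markers summed to 1303 to 1322 in control mice against 892 to 1277 in diseased-BWF1 mice over 10 genes, most of it from Csf3r, with Ly6g and Retnlg at 0 in every library. Over 7 markers of monocytes and small PMs the sums were 44.8 to 101.8 in control mice against 110.4 to 251 in diseased-BWF1 mice. Irf4 was the largest part in every mouse. It had 47.2, 62.8 and 27.6 in the control mice, against 199.2, 59.8 and 84.7 in the diseased-BWF1 mice. Of the 7 markers 3 were tested and 0 were called, and Ly6c2 had at most 1 count in any mouse. These lectins are also expressed by monocytes and neutrophils, and the part of such cells in the values below was not tested. In bulk RNA, fewer cells of a type and less RNA per cell cannot be told apart.

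In PMs from diseased-BWF1 mice, 0 of the 8 genes were called differentially expressed, which required 1.5-fold and an adjusted p below 0.05 (quasi-likelihood F test of edgeR, with p-values adjusted by the Benjamini-Hochberg method across the 10505 genes). Over all genes tested, 1.22% were called. An unadjusted p under 0.05 was found for 1 of the 8, Clec4e, where 13.2% of all genes had one. For 2 of the 8, Clec4e and Card9, no value of one group fell inside the other, which is 25.0%, where 20.8% of all genes had such groups. DESeq2 on the same sums also called 0 of the 8, where it called 3.54% of genes. The median log2 fold change was 0.03 for the 8 genes and 0.01 for all genes tested, with 5 of the 8 above 0 and 3 below. The shares of these genes past each threshold were thus near those of all genes.

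**Figure D1:**
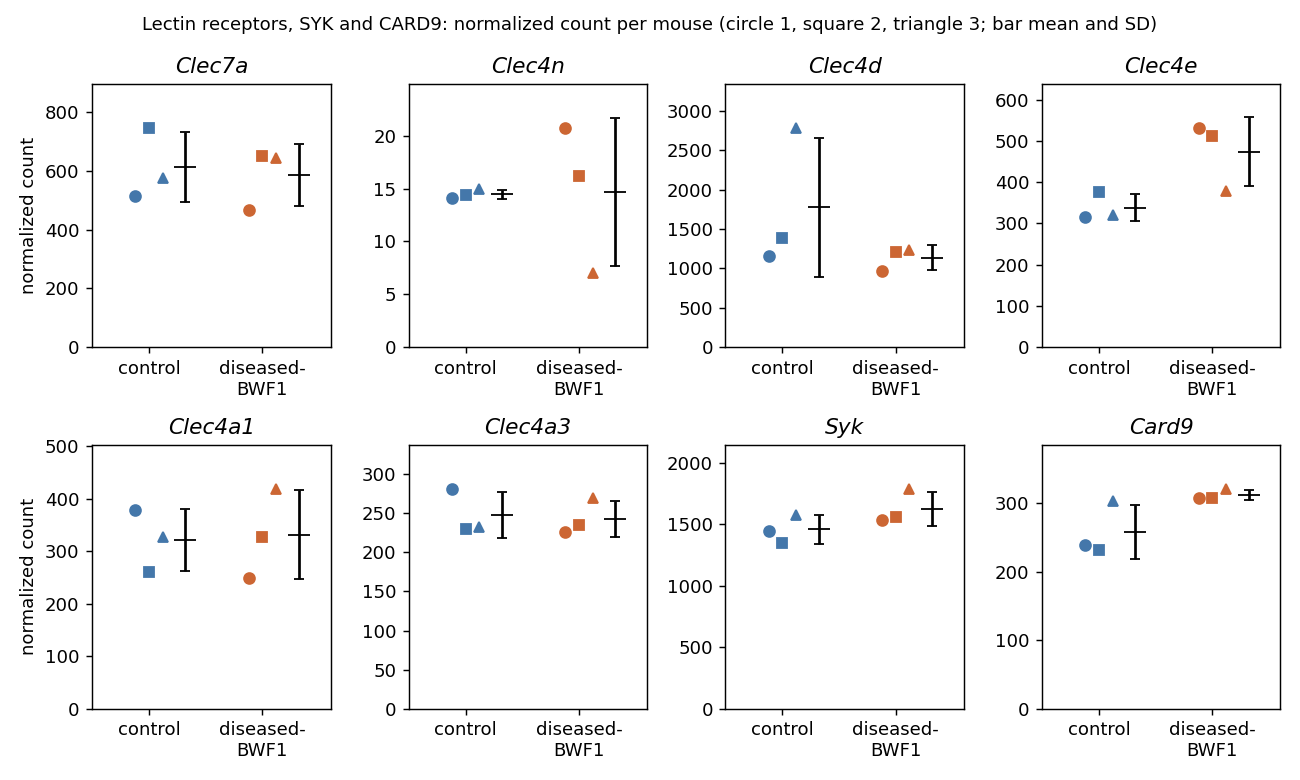
Normalized counts of Clec7a, Clec4n, Clec4d, Clec4e, Clec4a1, Clec4a3, Syk and Card9 (y axis, starting at 0) in each of 3 control mice (blue) and 3 diseased-BWF1 mice (orange), with the mean and SD beside each group. Clec4e and Card9 show groups that do not overlap, and control mouse 3 stands far above the other mice for Clec4d.

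Clec4e lies on chromosome 6 from 123281789 to 123289871 (GRCm38.p6) on the minus strand. It had 316.9, 375 and 321.5 normalized counts in the control mice, against 533, 511 and 379 in the diseased-BWF1 mice. No control mouse reached the level of any diseased-BWF1 mouse, but diseased-BWF1 mouse 3, at 379, was barely above control mouse 2, at 375. The means were 338 ± 32.6 and 474 ± 83.1 (SD, n = 3; two-sided exact permutation test, p = 0.1, the lowest value possible with groups of 3). This gave a log2 fold change of 0.49 (standard error (SE) 0.17, 95% interval 0.10 to 0.88, unadjusted p = 0.0212, edgeR adjusted p = 0.266). The difference was therefore not called, and the interval spans folds from 1.07 to 1.84. Most of the counts were on the curated mRNA record NM_019948.2, which had 283 ± 18.4 and 410 ± 47.4 normalized counts (SD, n = 3) in the control and diseased-BWF1 mice. On its own, that record had a log2 fold change of 0.54 (SE 0.14, edgeR adjusted p = 0.372, over 20332 records). With curated records alone and DESeq2, an alternative chosen after seeing the data, Clec4e had an adjusted p of 0.0327, and its log2 fold change of 0.55 was under the 0.58 that corresponds to 1.5-fold. Across all alternatives the adjusted p ranged from 0.0327 to 0.533.

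Clec4d, on chromosome 6 from 123262107 to 123275268 on the plus strand, is the neighbor of Clec4e, with 6.521 kb between the annotated genes. It had 1152, 1385 and 2788 normalized counts in the control mice, against 963, 1213 and 1240 in the diseased-BWF1 mice. Control mouse 3 was far above all others, and the remaining mice of both groups overlapped. The means were 1775 ± 885 and 1139 ± 152.6 (SD, n = 3; exact two-sided permutation test, p = 0.3). In the fit, the log2 fold change was -0.64 (SE 0.33, 95% interval -1.42 to 0.13, edgeR adjusted p = 0.472). Without control mouse 3 it was -0.16, so the size of the difference rests on that mouse. The library of control mouse 3 also stood apart from those of control mice 1 and 2 in a mean over genes. The mean chi-square per gene measures the difference between 2 libraries, and genes with high counts weigh most in it. For control mouse 3 it was 24.9 and 22.9 against control mice 1 and 2. Between control mice 1 and 2 it was 9.56. The part of this in the Clec4d values was not tested. Both curated records of Clec4d were read in every mouse, and NM_010819.4 held 82.5% to 90.9% of the counts.

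The 2 receptors form a complex, and their ratio within a mouse does not depend on library scaling. The comparison was chosen after the values were seen. The normalized count of Clec4e was 27.5%, 27.1% and 11.5% of that of Clec4d in the control mice against 55.3%, 42.2% and 30.6% in the diseased-BWF1 mice. Every diseased-BWF1 mouse had a higher ratio than every control mouse, with means of 22.1% ± 9.11 and 42.7% ± 12.4 (SD, n = 3). On the log2 scale the ratio was -2.29 ± 0.72 in control mice against -1.27 ± 0.43 in diseased-BWF1 mice, a difference of 1.02 (two-sided exact permutation test, p = 0.1, the smallest p possible). Without control mouse 3 the difference was 0.60. These are ratios of counts and not of molecules, since the transcripts differ in length.

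The windows from 250 bases before to 50 bases after the annotated start of both neighbors are shown because the 2 genes had the fold changes farthest from 0 among the 8, in opposite directions, although neither was called. The sequences are from RefSeq on GRCm38.p6 and run 5′ to 3′ on the strand of the gene. Capitals mark matches, on either strand, to letters of binding sites for factors of this pathway or lineage: GGGNNNNNCC for NF-κB, TTGCNNAA for C/EBP, AGGAAG for PU.1 and TGANTCA for AP-1.
Clec4e, chr6:123289822-123290121, minus strand: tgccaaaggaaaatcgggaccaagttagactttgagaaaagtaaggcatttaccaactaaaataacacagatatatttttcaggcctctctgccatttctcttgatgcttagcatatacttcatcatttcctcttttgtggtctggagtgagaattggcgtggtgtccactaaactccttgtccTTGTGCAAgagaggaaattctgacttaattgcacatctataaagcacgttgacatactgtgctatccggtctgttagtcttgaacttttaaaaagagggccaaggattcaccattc
Clec4d, chr6:123261857-123262156, plus strand: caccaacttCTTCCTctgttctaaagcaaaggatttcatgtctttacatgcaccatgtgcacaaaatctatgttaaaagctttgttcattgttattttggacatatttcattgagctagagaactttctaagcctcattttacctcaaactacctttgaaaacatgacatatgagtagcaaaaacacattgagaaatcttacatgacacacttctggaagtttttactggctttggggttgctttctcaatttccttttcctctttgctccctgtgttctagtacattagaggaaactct
The Clec4e window held 1 match to the C/EBP letters, starting 66 bases before the start, and the Clec4d window held 1 match to the PU.1 letters, starting 241 bases before it. Of all 32851 promoter windows, 10.8% held the C/EBP letters, 35.4% those of PU.1, 50.8% those of NF-κB and 7.81% those of AP-1. A match is a description of the sequence and not a site of binding.

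Clec7a, the β-glucan receptor Dectin-1, lies 6.17 Mb further along chromosome 6, from 129461591 to 129472785. It had 515, 747 and 576 normalized counts in the control mice, against 466, 650.2 and 644 in the diseased-BWF1 mice. The groups overlapped, with means of 613 ± 120.3 and 587 ± 105 (SD, n = 3; exact two-sided permutation test, p = 0.9). The log2 fold change was -0.07 (SE 0.20, edgeR adjusted p = 0.919), and the 95% interval spanned folds from 0.695 to 1.31. Between 68.6% and 92.4% of the counts were on NR_132130.1, a record classed as non-coding RNA, and the rest on the coding record NM_001309637.1. A further coding record that GENCODE pairs with Clec7a was not analysed here, so all Clec7a values given cover only the records named. The split between coding and non-coding transcripts is therefore not read from these counts.

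Clec4n, the α-mannan receptor Dectin-2, was close to the limit of detection, with 7 to 22 counts per mouse. It had 14.1, 14.4 and 14.9 normalized counts in the control mice, against 20.8, 16.2 and 7.06 in the diseased-BWF1 mice. The control mice were close together and lay inside the range of the diseased-BWF1 mice (14.5 ± 0.435 and 14.7 ± 6.98, SD, n = 3; exact two-sided permutation test, p = 1). Its log2 fold change was 0.03 (SE 0.43, edgeR adjusted p = 0.991), with a 95% interval of folds from 0.508 to 2.04. A change of 2-fold was thus at the edge of what these counts from 3 mice per group could show.

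Clec4a1 and Clec4a3 stand side by side at the other end of the Clec4 cluster, on chromosome 6 from 122921848 to 122934619 and from 122952515 to 122969878. Their receptors, unlike DCIR, lack an inhibitory motif. Clec4a1 had 378, 260.3 and 326.1 normalized counts in the control mice, against 249, 326.1 and 419 in the diseased-BWF1 mice. Clec4a3 had 281, 230.4 and 232 in the control mice, against 226, 235 and 269 in the diseased-BWF1 mice. For both genes the groups overlapped. The log2 fold change was 0.04 for Clec4a1 (SE 0.22, adjusted p = 0.965) and -0.03 for Clec4a3 (SE 0.14, edgeR adjusted p = 0.947). For Clec4a3 the 95% interval, from 0.785 to 1.22, excluded a fold change of 1.5 in either direction. The record NM_001204241.1 of Clec4a3 had 60 counts in control mouse 3 and 10 in diseased-BWF1 mouse 3, and 0 in the other mice.

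Syk is located on chromosome 13 (52582610 to 52648792). It had 1449, 1350 and 1580 normalized counts in the control mice, against 1536, 1562 and 1788 in the diseased-BWF1 mice. The groups overlapped, with means of 1460 ± 115.6 and 1629 ± 138.7 (SD, n = 3; exact two-sided permutation test, p = 0.3). The log2 fold change was 0.15 (SE 0.13, edgeR adjusted p = 0.684), and the 95% interval of folds, 0.895 to 1.38, excluded 1.5. The total was steadier than its records. NM_011518.2 had 0, 7 and 1 counts in the control mice, against 97, 126 and 8 in the diseased-BWF1 mice. XM_006516895.3, a predicted record, had 147, 151 and 51 counts in the control mice, against 244, 188 and 194 in the diseased-BWF1 mice. The main record, NM_001198977.1, had 1198 ± 197.1 and 1183 ± 208 normalized counts (SD, n = 3). NM_011518.2 was under the filter on low counts, and of the 21 records of the 8 genes 16 were tested and 0 were called (edgeR). Over all records, 13 were called and 1280 had an unadjusted p under 0.05. How reads shared between records of a gene were divided is not given in the sources used here.

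**Figure D2:**
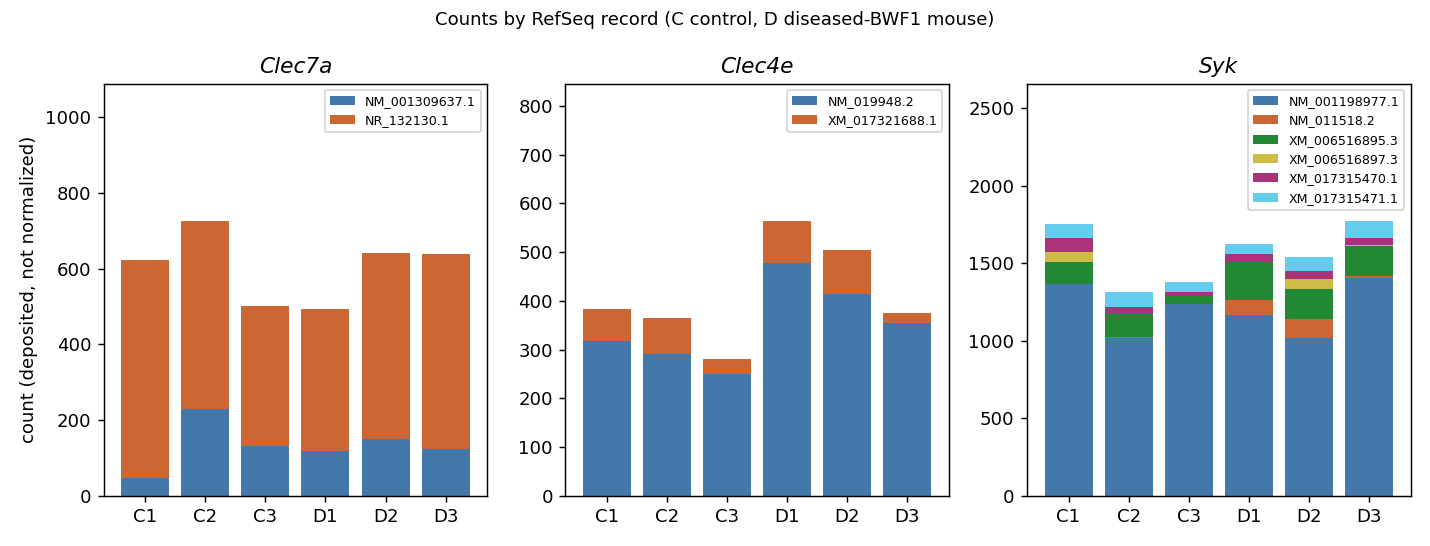
Deposited counts (y axis, not normalized) on each RefSeq record of Clec7a, Clec4e and Syk, stacked per mouse, for control mice C1 to C3 and diseased-BWF1 mice D1 to D3. Clec7a counts lie mostly on the non-coding record NR_132130.1, and the Syk record NM_011518.2 reaches 97 and 126 counts in D1 and D2 and at most 8 elsewhere.

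Card9 is located on chromosome 2 (26352187 to 26360945). It had 238, 231 and 303 normalized counts in the control mice, against 308, 308 and 321 in the diseased-BWF1 mice. All diseased-BWF1 mice lay above all control mice, with control mouse 3 close to them. The means were 258 ± 39.6 and 312 ± 7.43 (SD, n = 3; two-sided exact permutation test, p = 0.1, the smallest p possible). The log2 fold change was 0.27 (SE 0.14, 95% interval -0.05 to 0.60, edgeR adjusted p = 0.468). Stretches of 75 bases from its transcripts were shared with Gm13562 in 0.586% of cases, and for the other 7 genes no such sequence was shared with another gene of GENCODE vM21.

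**Figure D3:**
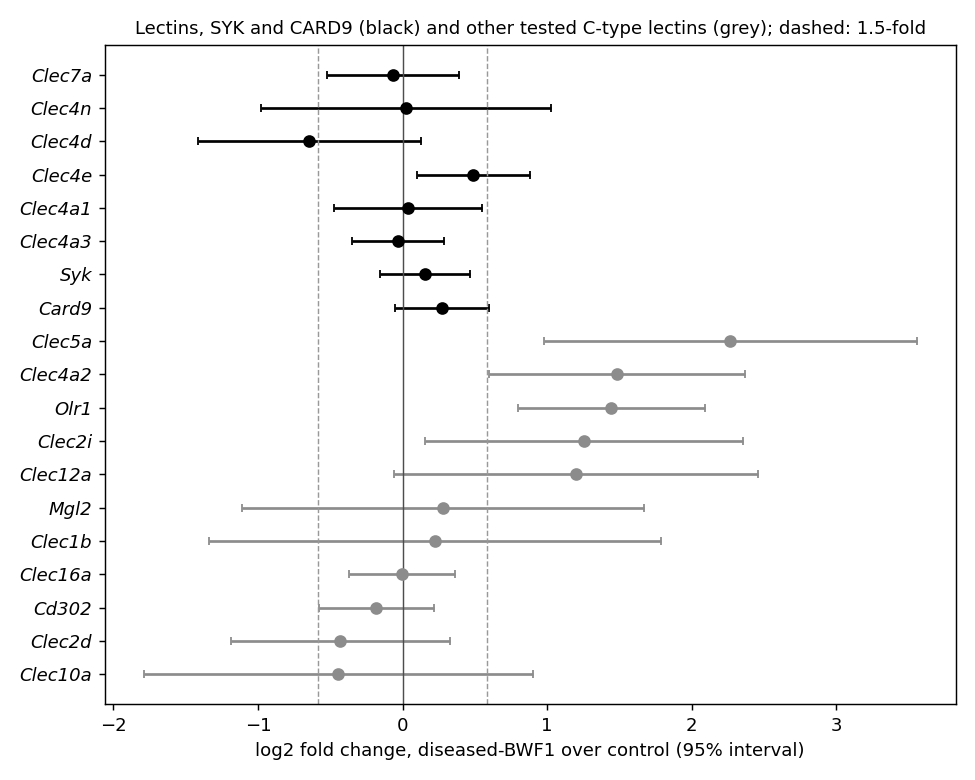
Log2 fold changes of diseased-BWF1 over control mice with 95% intervals (x axis) for the 8 genes (black) and 11 other tested C-type lectins (grey), with dashed lines at 1.5-fold. The interval of Clec4e lies above 0 and those of the other 7 genes include 0. Clec5a, Clec4a2 and Olr1 are among the grey lectins with larger fold changes. Clec4g is not drawn.

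Levels can be set side by side only per length of transcript. Per kilobase of the transcript paired with the main curated record, Clec4d had the highest level in control mice, with 1342 ± 669 normalized counts per kilobase (SD, n = 3), against 861 ± 115.3 in diseased-BWF1 mice. Syk followed with 272 ± 21.6 and 304 ± 25.9 normalized counts per kilobase. Clec4a1 had 206 ± 37.9 and 213 ± 54.4, Clec4a3 had 191 ± 22.3 and 187 ± 17.7, and Clec4e had 134 ± 12.9 and 188 ± 33.0 normalized counts per kilobase. Card9 had 132 ± 20.3 and 160.3 ± 3.82, and Clec4n was lowest with 11.8 ± 0.354 and 11.9 ± 5.68 normalized counts per kilobase. In control mice Clec4a1 and Clec4a3 differed by less than their SDs, as did Clec4e and Card9. In contrast, Clec4d in every mouse (728 or more) was above the other genes given here, and Clec4n in every mouse (16.9 or less) was below them. Clec7a was left out because no length was available for its main record.

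The region from Clec4a1 to Clec4e spans 368 kb and holds 11 annotated genes, of which 9 code for proteins and 6 passed the filter on low counts. Of the protein-coding genes between the members, Clec4a4 had 0 to 4 counts per mouse, Clec4b1 had 0 to 3, and Clec4b2 had 0 in every mouse. Clec4a2, which encodes the inhibitory receptor DCIR, had 19.0, 14.4 and 14.9 normalized counts in the control mice, against 51.0, 24.3 and 61.5 in the diseased-BWF1 mice. Its groups did not overlap, and its log2 fold change was 1.48 (SE 0.38, edgeR adjusted p = 0.145), which did not pass the threshold.

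Of 21 other C-type lectins listed, 12 were tested, 0 were called higher and 1 was called lower. The one called lower was Clec4g (LSECtin), a lectin known from liver and lymph node sinusoidal endothelium and from some myeloid cells. It had 25, 40 and 55 counts in the control mice, against 0, 2 and 0 in the diseased-BWF1 mice. The ratio of diseased-BWF1 to control counts, scaled for library size, was 0.0167 (exact Clopper-Pearson 95% interval 0.00200 to 0.0618, counting error only; edgeR adjusted p = 0.0344). Leaving out mice in turn, the call was lost in 5 of 6 analyses, all but the one without control mouse 1. Clec5a (MDL-1), an activating receptor that signals through DAP12 and SYK, had 12.4, 15.4 and 5.74 normalized counts in the control mice, against 51.0, 90.1 and 24.2 in the diseased-BWF1 mice. All diseased-BWF1 mice were above all control mice, and the log2 fold change was 2.27 (SE 0.55, edgeR adjusted p = 0.125). Olr1 (LOX-1), in the same gene complex as Clec7a, had a log2 fold change of 1.44 (edgeR adjusted p = 0.0651). With DESeq2, both Clec5a and Olr1 were called higher. These lectins are known from monocytes as well. The sum of markers of monocytes and small PMs, with Irf4 its largest part, was higher in the same mice. This is a measured difference whose part in the lectin values was not tested.

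Of the 14 genes of the signalling chain and kinases, all 14 were tested and 0 were called. Fcer1g, the partner chain of Dectin-2, MCL and Mincle, had a log2 fold change of -0.04 (SE 0.14) with 691 to 862 normalized counts per mouse. Tyrobp, the gene for DAP12, averaged 2704 ± 293 normalized counts in controls (SD, n = 3) against 2221 ± 268 in diseased-BWF1 mice, and the groups did not overlap (log2 fold change -0.29, SE 0.16). Prkcd, whose kinase phosphorylates CARD9, had 859 ± 40.6 and 1036 ± 39.0 normalized counts (SD, n = 3) and groups that did not overlap (log2 fold change 0.27, SE 0.12). Itpr2, a calcium channel gene, had a log2 fold change of -0.40 (SE 0.12). For these genes the adjusted p was 0.228 or more (edgeR).

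Of 16 genes of the CARD9 complex and NF-κB, all 16 were tested and 0 were called, with a median log2 fold change of 0.10, 12 above 0 and 4 below. Bcl10 had a log2 fold change of -0.02 (SE 0.13). Malt1 had 36.4, 59.7 and 36.7 normalized counts in the control mice, against 103.9, 99.3 and 28.2 in the diseased-BWF1 mice, so that diseased-BWF1 mouse 3 was below every control mouse. Nfkb2, of the alternative NF-κB branch, had overlapping groups (log2 fold change 0.36, SE 0.18), and Tab1, an adaptor of the kinase TAK1, had lower values in every diseased-BWF1 mouse (log2 fold change -0.38, SE 0.20). Nfkb1 had 462 ± 43.6 and 575 ± 73.9 normalized counts (SD, n = 3) and groups that did not overlap (log2 fold change 0.31, SE 0.14, edgeR adjusted p = 0.424). Of 11 inhibitors of SYK signalling, 10 were tested and 0 were called. Dok1, an adaptor that dampens tyrosine kinase signalling, had 144.5 ± 12.9 and 113.4 ± 10.3 normalized counts (SD, n = 3), a log2 fold change of -0.35 (SE 0.14). Ptpn22, Dok2 and Cbl had log2 fold changes of -0.63, -0.28 and 0.49, with overlapping groups.

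Of 20 genes that this pathway is known to induce, 6 were tested and 0 were called, and most of the cytokine genes were near or under the limit of detection. Il12b and Il23a had 0 counts in every mouse, which allows at most 0.652 to 0.888 CPM per library. Il1a had 61.2, 113.2 and 65.5 normalized counts in the control mice, against 32.1, 33.4 and 47.4 in the diseased-BWF1 mice. All diseased-BWF1 mice were lower, with a log2 fold change of -1.09 (SE 0.30, edgeR adjusted p = 0.170). Cxcl2 had 29.0, 83.3 and 49.4 normalized counts in the control mice, against 311.6, 61.8 and 21.2 in the diseased-BWF1 mice, so that 1 mouse carried the higher mean. Cxcl1 was likewise highest in diseased-BWF1 mouse 1, at 133 normalized counts, and lowest in diseased-BWF1 mouse 3, at 16.1. Tnfaip3, a feedback inhibitor of NF-κB, had 69.5, 76.1 and 56.3 in the control mice, against 132.2, 160.02 and 57.5 in the diseased-BWF1 mice.

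**Figure D4:**
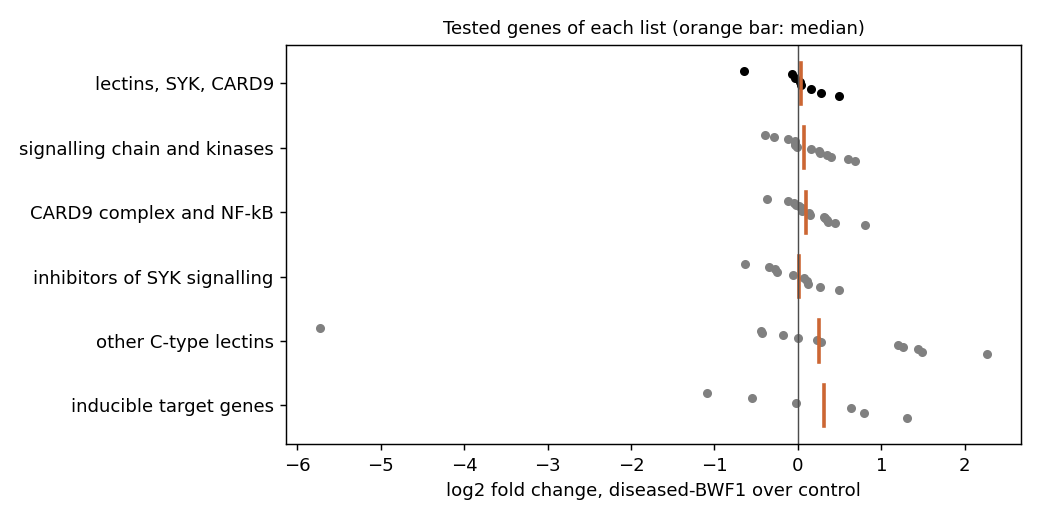
Log2 fold changes of diseased-BWF1 over control mice (x axis) for each tested gene of the lectin receptors with SYK and CARD9 (black, 8 genes) and of 5 pathway lists (grey), with the median of each list as an orange bar. Medians lie between 0.01 and 0.31, and the point far to the left is Clec4g.

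The genes whose log2 CPM followed each member most closely over the 6 mice are given as a description, since many genes reach a high correlation over 6 points. For Clec4e they were Pom121 and Setd6 (Pearson's r 0.993 and 0.983), and for Clec4d Ift46 and Ubb (0.993 and 0.992). Those of Clec7a were Ulk1 and Ecd, and those of Clec4n were Dtd1 and Exosc2. Clec4a1 was followed by Nxt1 and Zfp740, and Clec4a3 by Ttc30b and Irs2. For Syk they were Mrps10 and Edrf1, and for Card9 Spsb3 and Lgals4. None of these 16 genes was called, their adjusted p being 0.327 or more (edgeR).

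**Figure D5:**
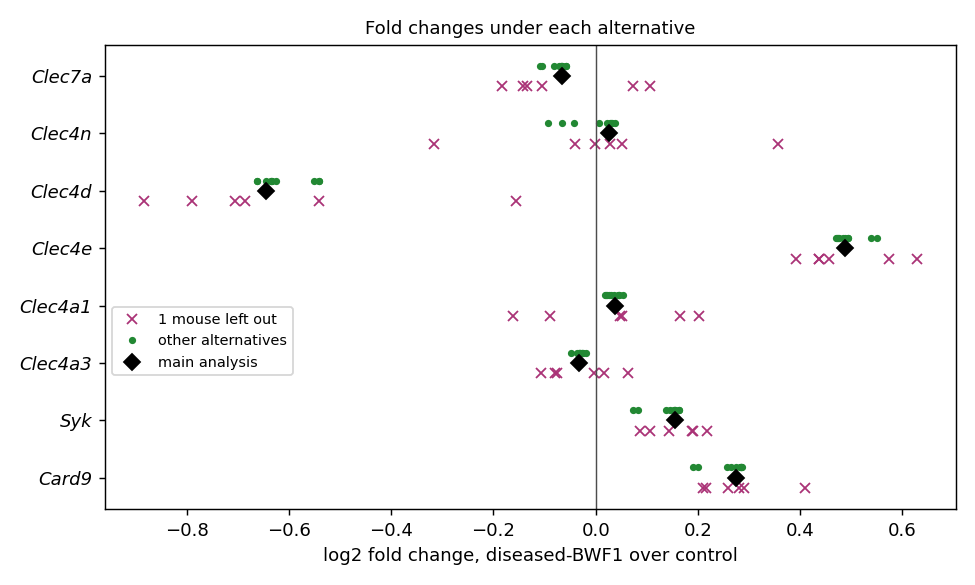
Log2 fold change of diseased-BWF1 over control mice (x axis) for each of the 8 genes in the main analysis (diamonds), with 1 mouse left out (crosses) and under the other alternatives (dots). Clec4e, Syk and Card9 stay above 0 and Clec4d below 0 throughout, with Clec4d moving to -0.16 without control mouse 3, while the other 4 genes take both signs when a mouse is left out.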

How the data were processed

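RNA from cell-sorted PMs was sequenced by the authors from stranded mRNA libraries (paired-end, MiSeq). The deposited files hold raw counts, as whole numbers, on 107193 RefSeq records per mouse. The submitters' processing notes name Salmon 0.8.0, DESeq2 and GRCm38.p6 without a role, so the counts may be rounded estimates. Records were matched to the RefSeq gene table of GRCm38.p6 (45754 with the same version, 40712 with another version), and 20727 unmatched records were left out. Counts were summed per gene, which placed 89.1% to 93.0% of counts on genes. The main comparison used edgeR 4.0.16 in R 4.3.3 (filterByExpr, TMM, glmQLFit, glmQLFTest), with Benjamini-Hochberg adjustment. A gene was called with an adjusted p under 0.05 and at least 1.5-fold, the thresholds in the paper's methods. The standard error is the log2 fold change divided by the square root of F. Normalized counts used DESeq2 1.42.0 size factors. Mice of a group are separate animals. No 2 libraries were duplicates. Alternatives also used DESeq2 and limma 3.58.1 (voom). The code was tested on simulated data.

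The members and gene lists were chosen with earlier results of these data known. Named were the 8 members, every called gene of 5 pathway lists and otherwise at most 4 per list with the smallest p, and the 2 genes most correlated with each member (log2 CPM, prior count 2). Fcer1g, Bcl10, Clec4a4, Clec4b1, Clec4b2, Il12b, Il23a and Gm13562, as well as markers, were named outside that rule. Windows of 75 bases were compared over GENCODE vM21 transcripts. Some genes that these lists or that rule cover are not reported here.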

Additional observations from a re-analysis of the deposited data

How the results depend on the processing

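No member was called under any of the 16 alternatives, and no record of a member was called on its own. Without the fold-change threshold, 1 value would pass: Clec4e with DESeq2 on curated records (adjusted p = 0.0327). Clec4d, Clec4e, Syk and Card9 kept their direction in all of these. With 1 mouse left out, the log2 fold change ranged from -0.88 to -0.16 for Clec4d, from 0.39 to 0.63 for Clec4e, from 0.09 to 0.22 for Syk and from 0.21 to 0.41 for Card9. It took both signs for Clec7a (-0.18 to 0.11), Clec4n (-0.32 to 0.36), Clec4a1 (-0.16 to 0.20) and Clec4a3 (-0.11 to 0.064). For Clec4n it was also reversed with the replicate block (-0.042), age as a covariate (-0.065) and limma-voom (-0.094). At least 10 counts in every library removed Clec4n. The median over the members ranged from -0.0100 to 0.132 with 1 mouse left out. The cause of these changes was not tested.

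Over all genes, 128 were called in the main analysis, 372 with DESeq2, 259 with no low-count filter, 84 with at least 10 counts in every library, 38 with the replicate block, 16 with curated mRNA records alone, 254 with DESeq2 on curated records (an alternative chosen after seeing the data), and 21 to 51 with 1 mouse left out. Of the pathway genes, 1 was called in the main analysis (Clec4g), 3 with DESeq2, with no filter and with DESeq2 on curated records (Clec4g, Clec5a and Olr1), 0 with at least 10 counts, the replicate block, limma-voom or curated records alone, and 0 to 1 with 1 mouse left out. Same-numbered mice are different animals, and their deviations correlated at 0.117, 0.00556 and 0.157. Mice of different numbers in the other group correlated at -0.144 to 0.0573, below the values for numbers 1 and 3. With so few mice these values cannot decide whether same-numbered mice share a batch. The replicate block changed no call of a member.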
